A study of Mus musculus with 6 samples.

Results

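The genes described here encode the synaptic vesicle and its release machinery, read in the cerebellum of wild-type mice and of mice with a hypomorphic allele of Sp4, which encodes a zinc-finger protein of brain that recognises GC-rich DNA. They are a list of 32 presynaptic genes, and their probes on an Illumina bead array were taken from the platform annotation: 71 probes in all. A probe entered the test if 3 or more of the 6 arrays called it above background (detection p below 0.05), which left 49 probes of 28 genes, out of 19515 tested probes and 10764 tested genes in the whole table. The arrays came from 3 wild-type mice and 3 littermates with the genotype Sp4neo-/-, all males of a Black Swiss X CD1 cross at postnatal day 21. Each array holds bulk RNA of the cerebellum, in which fewer cells of a type and less RNA per cell cannot be told apart.

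Neurotransmitter is stored in synaptic vesicles, which are held in a reserve by synapsins, docked at the active zone by Rim, Piccolo, Bassoon and Rab3, and primed by Unc13 proteins. Fusion is driven by the SNARE proteins (a vesicle protein of the Vamp family with Snap25 and syntaxin of the plasma membrane), is clamped by complexins and is triggered when synaptotagmins bind calcium. Nsf and its adaptor proteins then take the SNARE complexes apart, and adaptors such as Snap91 return vesicle membrane to the terminal. In the cerebellum these proteins serve the glutamate-releasing parallel fibres of granule cells as well as the GABA-releasing terminals of Purkinje cells and interneurons, and paralogues are used in different proportions by these cells.

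Sp factors bind the GC box, so the 250 bases before the gene starts in the RefSeq table of build GRCm38.p6 were searched for GGGCGG on either strand (CCGCCC on the other). The promoters of the 3 genes with the smallest unadjusted p on any probe are shown because a factor of this family is the one altered in these mice. Each is given 5′ to 3′ on the strand of the gene, with the matched letters in capitals. Syt1 has windows for 2 starts, and the more upstream of them holds the match.
Syngr1, chr15:80091084-80091333, plus strand: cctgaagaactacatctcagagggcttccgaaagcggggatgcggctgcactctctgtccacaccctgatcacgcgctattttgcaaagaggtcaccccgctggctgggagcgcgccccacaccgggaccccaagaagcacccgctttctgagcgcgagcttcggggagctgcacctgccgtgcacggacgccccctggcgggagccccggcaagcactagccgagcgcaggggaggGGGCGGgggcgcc
Snap91, chr9:86880709-86880958, minus strand: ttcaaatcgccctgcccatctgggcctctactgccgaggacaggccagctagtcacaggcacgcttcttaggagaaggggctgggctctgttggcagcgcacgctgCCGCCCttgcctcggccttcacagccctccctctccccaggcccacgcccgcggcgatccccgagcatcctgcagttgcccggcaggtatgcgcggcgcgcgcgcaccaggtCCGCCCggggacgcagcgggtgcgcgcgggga
Syt1, upstream start, chr10:109010976-109011225, minus strand: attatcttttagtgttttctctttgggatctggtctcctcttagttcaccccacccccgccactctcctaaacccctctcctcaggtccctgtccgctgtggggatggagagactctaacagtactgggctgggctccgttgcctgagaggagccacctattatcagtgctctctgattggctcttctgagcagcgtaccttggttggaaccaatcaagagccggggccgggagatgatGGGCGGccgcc
Syt1, downstream start, chr10:109009112-109009361, minus strand: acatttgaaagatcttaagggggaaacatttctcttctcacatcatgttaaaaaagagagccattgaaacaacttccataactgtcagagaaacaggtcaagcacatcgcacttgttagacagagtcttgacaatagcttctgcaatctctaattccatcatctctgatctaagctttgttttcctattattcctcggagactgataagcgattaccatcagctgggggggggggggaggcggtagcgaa
The match begins 13 bases before the start of Syngr1, 144 and 32 bases before the start of Snap91, and 11 bases before the upstream start of Syt1. Windows were counted for 26 genes of the list, and 20 of them held the letters in at least 1 window (76.9%). Syn3, Syt4, Doc2b, Vamp2, Snap25 and Rims2 were not counted, so the list's counts and medians below leave them out. Of these, Syt4 had the largest difference among the brightest probes of the list (-0.46). Among all genes of the table the share was 35.4%. Among the 8690 that were also tested on the arrays it was 64.3%, beside 18 of the 23 counted genes of the list that were tested (78.3%). In the 18 tested genes with a match, 10 had higher and 8 lower values in the hypomorph (median 0.02 on the log2 scale). The 5 tested genes without a match had 1 higher and 4 lower values, with a median of -0.06. A match is a description of these letters and does not show that a factor binds there.

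Between 18656 and 20135 of 45281 probes were above background on an array. Sp4 was read by 2 tested probes. The dimmer was above background on 3 wild-type and 0 hypomorph arrays, so that it entered the test through the wild type alone, and it gives no further check. On the brighter probe, detected on all 6 arrays, the log2 intensity was 7.82, 6.86 and 7.35 in wild type 1 to 3 and 5.99, 5.80 and 6.32 in hypomorph 1 to 3. All hypomorph arrays lay below all wild-type arrays, with a log2 difference of -1.30 (SE 0.26.) It did not pass limma's test after Benjamini-Hochberg adjustment (adjusted p = 0.355). Of the marker genes fixed for the tissue, 8 of 9 granule cell genes were above background, as were the Purkinje cell genes Pcp2, Ppp1r17 and Slc1a6. No probe of Calb1, Car8 or Pcp4 was above background on 3 arrays. Neither was any of Tbr1, Neurod6, Emx1 and Ddn, genes of the forebrain.

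Across the release machinery, the hypomorph and the wild type differed little in these arrays. Of the 49 probes, 25 had higher and 24 lower values in the hypomorph, and 0 reached an adjusted p of 0.05 in limma with Benjamini-Hochberg adjustment (0% of all tested probes did). The lowest adjusted p among them was 0.745. Before adjustment 2 probes had a p under 0.05 (4.08%), 1 of Syngr1 and 1 of Snap91, against 5.31% of all tested probes. The groups did not overlap on 2 of the 49 probes, against 10.5% of all tested probes. On 1 of them, of Syt1, all hypomorph arrays lay above (5.5% of all tested probes), and on the other, of Syngr1, all lay below (5.02%).

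When each gene is represented by its brightest tested probe, 13 genes had higher and 15 lower values in the hypomorph (46.4% higher, against 48.1% of all tested genes). With the arrays scaled to a common median in place of quantile normalization, the split was 10 higher and 18 lower, under a scaling that moved the median of all tested genes to -0.08 and that of these genes to -0.04. The median log2 difference was -0.02, beside -0.01 over all tested genes, and the single values ran from -0.46 for Syt4 to 0.27 for Syt1. None of the 28 genes had an unadjusted p under 0.05 on this probe (0 of 28), against 5.23% of all tested genes. The median moved furthest without the array of wild type 2, to 0.08, with 18 genes higher and 10 lower. It was also above 0 without hypomorph 1, at 0.04 with 15 genes higher and 13 lower. With array weights it was 0.04 (17 higher and 11 lower), and with the mean over probes 0.0045 (14 higher and 14 lower). A log2 difference smaller than 0.2 in size was found for 23 of 28 genes (82.1%), against 69.4% of all tested genes, but counted by probe the shares were alike, 33 of 49 (67.3%) against 67.2%. The 95% interval of the difference lay within a 1.5-fold change in either direction for 18 genes and within a 2-fold change for 25. The exceptions to the wider limit were Syt4, Stx1a and Rab3c, whose intervals reached further than 2-fold.

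**Figure D1:**
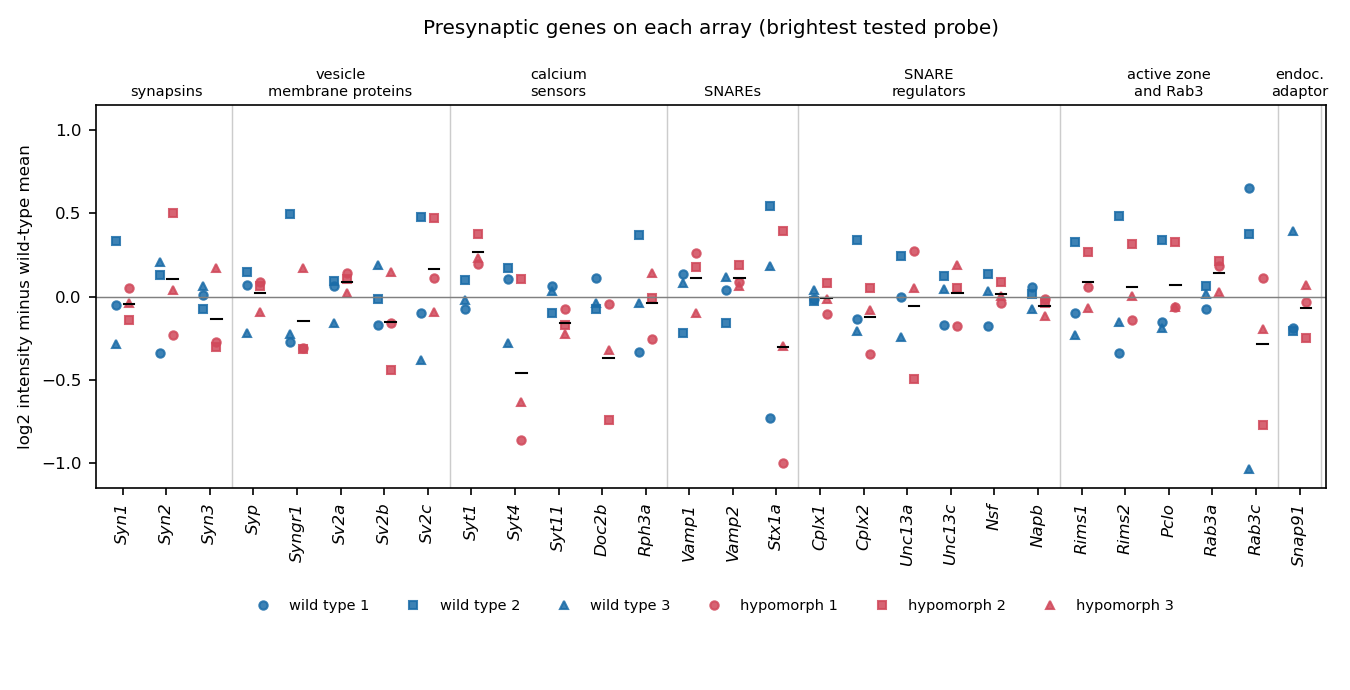
Log2 intensity of 28 presynaptic genes on each of the 6 arrays, minus the mean of the 3 wild-type arrays (y axis), for the brightest tested probe of each gene (x axis, by role). Blue symbols are wild-type and red symbols hypomorph arrays, the shape gives the array's number, and black lines are hypomorph means. On most genes the colours are interleaved; Syt1 is the gene on which all 3 red symbols lie above all 3 blue ones.

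The synapsins coat vesicles and tether them to each other and to the cytoskeleton. All 3 were detected, with 1 higher and 2 lower in the hypomorph. Syn1 stood at a log2 intensity of 13.01, 13.39 and 12.77 in wild type 1 to 3 and at 13.11, 12.92 and 13.02 in hypomorph 1 to 3. The hypomorph arrays thus lay inside the wild-type range, and the log2 difference was -0.04 (SE 0.18), with 0.09 (SE 0.13) on its other tested probe. Syn2 stood at 11.97, 12.44 and 12.52 in wild type and at 12.08, 12.81 and 12.35 in the hypomorph, and its log2 difference was 0.10 (SE 0.23). Its array values were spread more widely within each genotype than the genotype means lay apart. Syn3 was close to background, at 6.53, 6.45 and 6.58 in wild type and 6.25, 6.22 and 6.69 in the hypomorph, and its log2 difference was -0.13 (SE 0.17). It rests on 1 of its 7 probes, annotated to a cDNA clone record; the other 6 did not reach the detection filter.

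The membrane proteins of the vesicle include the tetraspan proteins synaptophysin (Syp), synaptoporin (Synpr) and synaptogyrin 1 (Syngr1), and the Sv2 glycoproteins, of which Sv2a is the binding site of the antiepileptic levetiracetam. Of 5 genes tested, 3 had higher and 2 lower values by their brightest probe. Syp differed by 0.02 on the log2 scale (SE 0.15), with a 95% interval from -0.33 to 0.37. The only probe of Synpr was not above background on any array.

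Syngr1 had the smallest unadjusted p of the list, on the dimmest of its 4 tested probes. Probe ILMN_3028575 read 7.52, 7.21 and 7.33 in wild type 1 to 3 and 7.07, 6.51 and 6.67 in hypomorph 1 to 3. All hypomorph arrays lay below all wild-type arrays, by a log2 difference of -0.60 (1.52-fold, SE 0.18). It did not pass over all probes (unadjusted p = 0.0119, adjusted p = 0.745 in limma), and in the authors' processed values it was -0.31. Without 1 array at a time the difference ran from -0.76 to -0.49. The other probe of the same transcript record, ILMN_3101732, differed by -0.22 (SE 0.16), and the groups overlapped on it. A pair of brighter probes, annotated to another Syngr1 transcript record, differed by -0.15 (SE 0.25) and 0.05 (SE 0.16). Averaged by record, the differences were -0.41 and -0.05. The mean of the first record minus that of the second changed by -0.36 from wild type to hypomorph. An exact permutation test over 20 splits of the arrays gave a p of 0.3. With 3 arrays per group that p cannot fall below 0.1, so the test cannot decide whether the records differ in response.

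Of the Sv2 proteins, Sv2a stood at 12.84, 12.87 and 12.62 in wild type and 12.92, 12.89 and 12.80 in the hypomorph, and its log2 difference was 0.09 (SE 0.13). Sv2b stood at 12.78, 12.94 and 13.14 in wild type and 12.79, 12.51 and 13.10 in the hypomorph, a difference of -0.15 (SE 0.19). Its second tested probe, annotated to a cDNA clone record, read 7.08 in wild type 1 but 8.21 and 8.14 in wild type 2 and 3, with 7.59, 7.22 and 7.31 in the hypomorph. The hypomorph arrays lay between these wild-type extremes, so that the difference of -0.43 had an SE of 0.31; without wild type 1 it was -0.80. Sv2c, at 5.66, 6.24 and 5.38 in wild type and 5.87, 6.24 and 5.67 in the hypomorph, was above background on 1 wild-type and 3 hypomorph arrays, so that it passed the filter mainly through the hypomorph. Its log2 difference was 0.17 (SE 0.25).

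**Figure D2:**
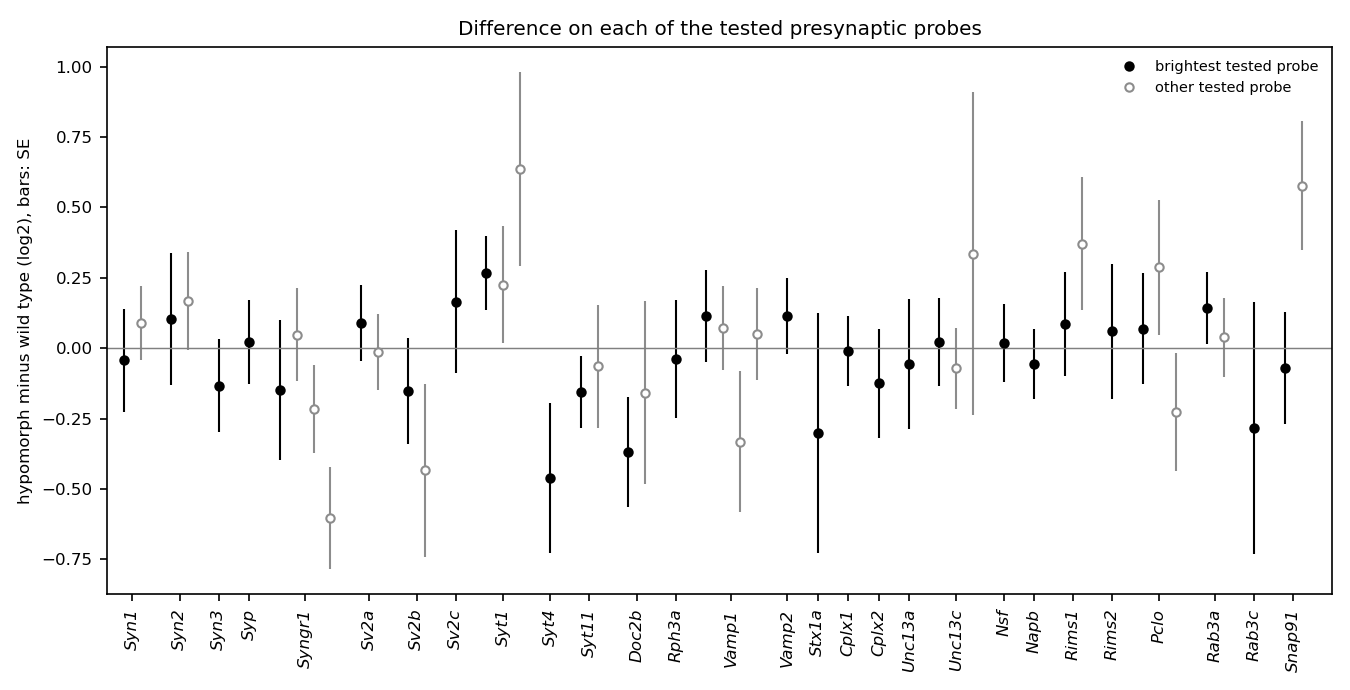
Log2 difference, hypomorph minus wild type, on each of the 49 tested probes (y axis, error bars give the SE of the limma fit with 3 arrays per group), grouped by gene (x axis). Filled symbols are the brightest tested probe of a gene. Most lie near 0, and the probe farthest below 0 is that of Syngr1 at -0.60, while a probe of Syt1 stands highest at 0.64.

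The calcium sensors are the group in which the hypomorph means lay lowest. Synaptotagmin 1 (Syt1) and synaptotagmin 2 (Syt2) are fast sensors of synchronous release, Syt4 and Syt11 are members that do not bind calcium in the same way, Doc2b is a high-affinity sensor linked to spontaneous release, and rabphilin (Rph3a) is an effector of Rab3. By their brightest probe 4 of 5 tested genes had lower values and 1 a higher value. The mean deviation of these 5 genes from their 6-array means was 0.05, 0.17 and 0.01 in wild type 1 to 3 and -0.13, -0.01 and -0.09 in hypomorph 1 to 3. The groups did not overlap on this mean, which is given as a description. It was picked out from the roles of the list, whose other means overlapped. Of all tested probes, 10.5% did not overlap either. The mean includes Syt1, which was higher, and no gene of the group passed.

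Syt1 went the other way, with higher values in the hypomorph on all 3 of its tested probes. Its brightest probe read 13.65, 13.82 and 13.70 in wild type 1 to 3 and 13.92, 14.10 and 13.96 in hypomorph 1 to 3. All hypomorph arrays lay above all wild-type arrays, by a log2 difference of 0.27 (1.20-fold, SE 0.13; unadjusted p = 0.0785, adjusted p = 0.974 in limma). The second probe read 11.99, 12.57 and 11.93 against 12.18, 12.56 and 12.42, a difference of 0.23 (SE 0.21), and here the groups overlapped. It was 0.11 without wild type 3 and 0.44 without wild type 2. The third, on a cDNA clone record, read 7.30, 7.85 and 7.28 against 7.82, 8.90 and 7.62. Its difference of 0.64 (SE 0.34) owed its size to hypomorph 2, without which it was 0.25, and it was 0.42 with the authors' values. The only probe of Syt2 was not above background on any array.

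Syt4 had the largest difference among the brightest probes, and a wide spread. It stood at 13.62, 13.68 and 13.23 in wild type and at 12.65, 13.62 and 12.88 in the hypomorph. Hypomorph 1 and 3 lay below every wild-type array and hypomorph 2 within the wild-type range, so that the log2 difference was -0.46 with an SE of 0.27 (adjusted p = 0.992 in limma). Without hypomorph 2 it was -0.75 and without hypomorph 1 it was -0.26. Doc2b stood at 11.25, 11.07 and 11.11 in wild type and at 11.10, 10.40 and 10.82 in the hypomorph, a difference of -0.37 (SE 0.20; adjusted p = 0.989). Hypomorph 2 and 3 were below every wild-type array and hypomorph 1 was not, and without hypomorph 2 the difference was -0.18. Its second probe differed by -0.16 (SE 0.33). Syt11 stood at 9.50, 9.33 and 9.46 in wild type and 9.36, 9.26 and 9.20 in the hypomorph, a difference of -0.16 (SE 0.13), with -0.06 (SE 0.22) on its second probe. Rph3a differed by -0.04 (SE 0.21).

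The SNARE proteins form the complex that pulls the membranes together. Vamp2 stood at 13.23, 13.03 and 13.30 in wild type and at 13.27, 13.38 and 13.25 in the hypomorph, and its log2 difference was 0.11 (SE 0.14). Its paralogue Vamp1 stood at 9.72, 9.37 and 9.66 in wild type and 9.85, 9.76 and 9.48 in the hypomorph, a difference of 0.11 as well (SE 0.16). On both vesicle SNAREs the groups overlapped. The other 3 Vamp1 probes differed by 0.07 (SE 0.15), 0.05 (SE 0.16) and -0.33 (SE 0.25). Neither of the 2 probes of Snap25, the plasma membrane SNARE of most central neurons, was above background on any of the 6 arrays.

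Stx1a, the syntaxin that pairs with Snap25, was among the members that varied most between animals. It stood at 9.34, 10.61 and 10.25 in wild type 1 to 3 and at 9.07, 10.46 and 9.77 in hypomorph 1 to 3. In both genotypes the array numbered 1 was lowest and that numbered 2 highest. The spread inside the genotypes (pooled SD 0.68) was more than the log2 difference between them, -0.30 (SE 0.43). The study compared 3 pairs of littermates, but whether same-numbered mice form a pair is not stated by the labels.

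**Figure D3:**
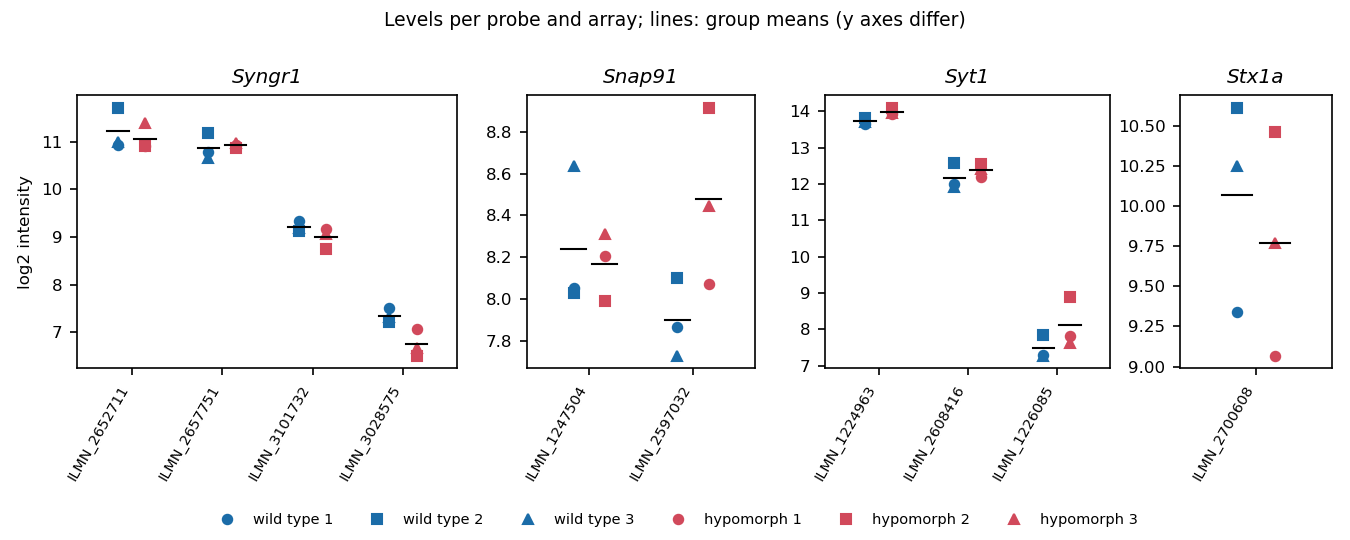
Log2 intensity (y axis, with a separate scale in each panel) on each tested probe of Syngr1, Snap91, Syt1 and Stx1a for 3 wild-type (blue) and 3 hypomorph (red) arrays, with lines at the group means. The groups separate on ILMN_3028575 of Syngr1 and ILMN_1224963 of Syt1, whereas on the Stx1a probe the array numbered 1 is lowest and that numbered 2 highest in both genotypes.

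All 6 genes of proteins that act on the SNARE complex were tested. By their brightest probes 2 had higher and 4 lower values, running from -0.12 to 0.02. Complexin 1 (Cplx1), a clamp and activator of fusion, stood at 14.99, 14.98 and 15.05 in wild type and at 14.90, 15.09 and 14.99 in the hypomorph. Its log2 difference was -0.01 (SE 0.13), and the 95% interval allowed at most a 1.23-fold change in either direction. Complexin 2 (Cplx2) stood at 11.14, 11.61 and 11.06 in wild type and at 10.92, 11.32 and 11.19 in the hypomorph, a difference of -0.12 (SE 0.19). Nsf, the ATPase that disassembles SNARE complexes, differed by 0.02 (SE 0.14) and its adaptor Napb by -0.06 (SE 0.12). Of the priming factors, Unc13c, known for its high expression in granule cells, differed by 0.02 (SE 0.16), and Unc13a, a priming factor of most glutamatergic terminals, by -0.06 (SE 0.23). A dim probe of Unc13c, above background on 4 arrays, differed by 0.34 with an SE of 0.57.

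At the active zone, 4 of 5 tested genes had higher and 1 had lower values. Rims1, a scaffold that recruits calcium channels and Unc13, differed by 0.09 (SE 0.19) on its brightest probe. Another probe, annotated to a different Rims1 transcript record, read 7.89, 8.48 and 7.83 in wild type 1 to 3 and 8.24, 8.81 and 8.27 in hypomorph 1 to 3. The array numbered 2 was highest in both genotypes, the groups overlapped and the difference of 0.37 had an SE of 0.24; it was 0.58 without wild type 2 and 0.19 without hypomorph 2. Its paralogue Rims2 differed by 0.06 (SE 0.24). Piccolo (Pclo), a giant scaffold, stood at 8.13, 8.63 and 8.10 in wild type and at 8.23, 8.62 and 8.23 in the hypomorph, a difference of 0.07 (SE 0.20). The arrays numbered 2 were highest in both genotypes. Its other probes differed by 0.29 (SE 0.24) and -0.23 (SE 0.21), the latter on a probe above background on 5 arrays. Neither of the 2 probes of Bassoon (Bsn), the paralogous scaffold, was above background on any array.

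Rab3a, the vesicle GTPase that binds Rim, stood at 13.61, 13.75 and 13.70 in wild type and 13.87, 13.90 and 13.71 in the hypomorph, a difference of 0.14 (SE 0.13), with 0.04 (SE 0.14) on its second probe. Rab3c had the widest spread among the brightest probes of the list (pooled SD 0.72). It was above background on 2 arrays of each genotype, and its log2 difference of -0.28 had an SE of 0.45; without wild type 1 the difference was 0.05.

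Snap91, also named AP180, assembles clathrin at sites of vesicle retrieval, and its 2 tested probes disagreed. Probe ILMN_2597032 read 7.87, 8.10 and 7.73 in wild type 1 to 3 and 8.07, 8.91 and 8.45 in hypomorph 1 to 3. Hypomorph 1 lay just below wild type 2 and the other hypomorph arrays above every wild-type array, a log2 difference of 0.58 (SE 0.23; unadjusted p = 0.0385, adjusted p = 0.903 in limma). Without hypomorph 2 it was 0.36, and in the authors' processed values 0.41. Probe ILMN_1247504 read 8.05, 8.03 and 8.63 in wild type and 8.21, 7.99 and 8.31 in the hypomorph, a difference of -0.07 (SE 0.20). Both probes are annotated to the same transcript record, and they do not give one direction for the gene. Of the 14 genes with at least 2 tested probes, 7 had probes of both signs, and in 3 of them (Syngr1, Pclo and Snap91) the probes of opposite sign lay more than 0.5 apart.

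For 4 members, Synpr, Syt2, Snap25 and Bsn, there was no tested probe. Their 6 probes read between 4.58 and 5.12 on the log2 scale, while the dimmest probe called above background on an array read between 5.58 and 5.79. These values give no difference between the genotypes. They do not show that the transcripts are absent, and why these probes were dark was not tested.

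Seen by array, the mean deviation of the 28 genes from their 6-array means was -0.06, 0.18 and -0.06 in wild type 1 to 3 and -0.07, 0.03 and -0.02 in hypomorph 1 to 3. Wild type 2 stood highest, and the groups overlapped. The same array was highest in the mean of 8 granule cell markers, at 0.30, where wild type 1 (-0.26) and hypomorph 1 (-0.19) were lowest. It was low in the mean of 8 oligodendrocyte markers, at -0.16, beside -0.25 in hypomorph 2 and -0.22 in hypomorph 3. The granule cell markers had 3 higher and 5 lower values in the hypomorph (median log2 difference -0.02), and the oligodendrocyte markers 8 lower of 8 (median -0.21), of which 0 passed and 0 had an unadjusted p under 0.05. Of 3 tested Purkinje cell markers, 1 was higher and 2 were lower (median -0.19). Astrocyte and Bergmann glia markers were lower in 5 of 7 and microglia markers in 3 of 7. Vessel markers were lower in 3 of 5, yet their mean by array did not overlap between the genotypes (-0.03, -0.29 and 0.01 in wild type 1 to 3, and 0.01, 0.04 and 0.26 in hypomorph 1 to 3). Among them Slco1a4, a transporter of brain endothelium, was higher by 1.26 (SE 0.26, adjusted p = 0.355 in limma). Its probe was dim and above background on 2 wild-type and 3 hypomorph arrays. The other vessel markers differed by -0.11 to 0.04, so that the separation of the mean went with this gene. Of 5 interneuron markers 2 were higher, Lgi2 by 0.47 (SE 0.20; adjusted p = 0.921). The mean of 2 choroid plexus markers was lowest in wild type 2, at -0.93. The part of cell composition in the presynaptic values was not tested. The pooled SD within genotypes had a median of 0.24 over the presynaptic genes and 0.21 over all tested genes, and the difference between genotypes exceeded it in 6 of 28 genes (21.4%), against 28.8% of all tested genes.

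**Figure D4:**
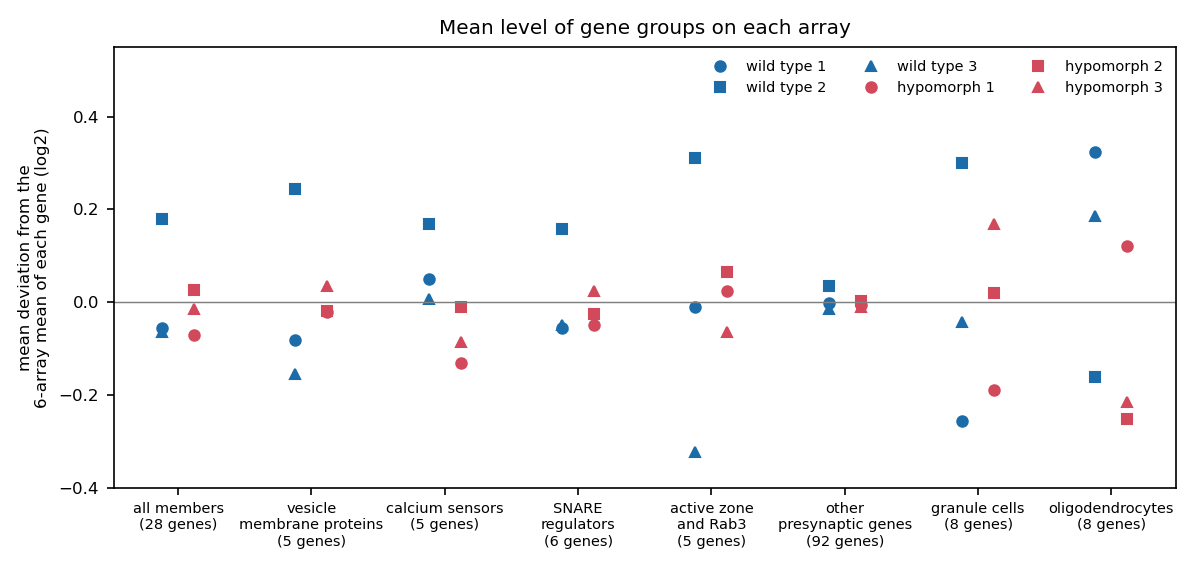
Mean deviation of gene groups from the 6-array mean of each gene (y axis, log2) on each array, for all 28 tested presynaptic genes, 4 of their roles, 92 other presynaptic genes and the markers of granule cells and oligodendrocytes. Blue symbols are wild-type and red symbols hypomorph arrays. Wild type 2 (blue square) stands highest in the presynaptic groups and in the granule cell markers and below 0 in the oligodendrocyte markers.

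Other genes of the presynaptic terminal, in 6 lists of 115 genes, gave similar counts. Of 92 tested, 40 had higher and 52 lower values (median -0.01). None passed after adjustment over all probes (0 of 92), and 3 had an unadjusted p under 0.05 (3.26%, against 5.23% of all tested genes), 1 higher (2.23% of all tested genes were) and 2 lower (3%). Their means by array were between -0.02 and 0.03.

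The largest of these values was that of Rab3b, a paralogue of Rab3a, which read 7.10, 6.65 and 6.51 in wild type 1 to 3 and 7.20, 8.11 and 7.81 in hypomorph 1 to 3. All hypomorph arrays lay above all wild-type arrays, by a log2 difference of 0.95 (SE 0.27; unadjusted p = 0.00842, adjusted p = 0.733 in limma). A second Rab3b probe differed by 0.34 (SE 0.33). It was above background on 1 wild-type and 2 hypomorph arrays, so that it passed the filter mainly through the hypomorph and gives no further check. Ppfia4, a liprin of the active zone, read 5.69, 7.31 and 6.50 against 5.38, 5.49 and 5.84, a difference of -0.93 (SE 0.38; unadjusted p = 0.043) on a probe above background on only 2 wild-type arrays and 1 hypomorph array. In the list of other active zone and Rab3 cycle genes, 12 of 21 had higher values.

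Among other calcium sensors, Syt5, a synaptotagmin of vesicles, read 7.79, 8.41 and 7.72 in wild type and 7.14, 7.60 and 7.09 in the hypomorph. All hypomorph arrays lay below all wild-type arrays, by -0.70 (SE 0.23; unadjusted p = 0.0197, adjusted p = 0.825). Syt13 differed by -0.40 (SE 0.22), and 7 of the 10 tested genes of this list had lower values (median -0.05). Of 19 other SNAREs and regulators 8 had higher values, among them the priming factor Unc13b at 0.43 (SE 0.19) and the axonal protein syntaphilin (Snph) at 0.41 (SE 0.26). Unc13b was at 9.63, 9.65 and 9.62 in wild type and at 9.75, 10.45 and 10.01 in the hypomorph, so that the groups did not overlap (unadjusted p = 0.057 in limma). Besides Rab3b, Syt5 and Unc13b, the groups of these lists did not overlap on the brightest probe of Cadps, Calm3, Bin1, Itsn2, Dnajc6 and Sh3gl3. Over all tested probes the share without overlap was 10.5%.

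Of 8 genes of vesicle transmitter transporters and synthesis enzymes, 5 were tested, with 1 higher and 4 lower values. The vesicular glutamate transporter Slc17a7 of parallel fibres differed by 0.02 (SE 0.18), Slc17a6 by -0.19 (SE 0.21), the vesicular GABA transporter Slc32a1 by -0.05 (SE 0.17), and the GABA-synthesizing enzyme genes Gad1 and Gad2 by -0.13 (SE 0.18) and -0.09 (SE 0.18). Of 17 other vesicle proteins 7 had higher values, and the farthest were Sncg at -0.36 (SE 0.29) and Syngr2 at 0.31 (SE 0.30), whose other tested probes differed by -0.16 (SE 0.33) and -0.08 (SE 0.23). Of 20 genes of vesicle endocytosis 9 had higher values (median 0.00), the smallest p being those of the membrane-bending protein Bin1 (-0.30, SE 0.15) and the scaffold Itsn2 (-0.30, SE 0.15). Other tested probes of Bin1 differed by 0.21 (SE 0.31) and 0.11 (SE 0.26).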

How the data were processed

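RNA of the cerebellum was labelled with biotin and read on Illumina bead arrays, 1 per animal, per the labels' protocols. The submitters' processing notes name BeadStudio; for its version, the background method, slides and scan dates nothing is given in the sources used here. Deposited were linear intensity values, background-subtracted judging by values below 0, their detection p-values, and a second table of processed intensity values, whose ranks within an array equal those of the first table. That the latter were quantile-normalized is inferred from the values.

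Background correction from the detection p-values, quantile normalization and a log2 transform (offset 16) were made with neqc of limma 3.58.1 in R 4.3.3. The offset makes differences of dim probes smaller, and the normalization hides any shift common to most transcripts. Probes above background on 3 or more of 6 arrays entered 1 fit (lmFit and eBayes, hypomorph minus wild type, no block), with Benjamini-Hochberg adjustment over all 19515. The fit was checked on simulated data with known changes and with noise independent between probes and arrays. Deviations shared between arrays were not simulated, so the check does not cover them. A pooled SD is the root of the mean of both genotypes' variances. Gene names came from the platform annotation, and 10378 probes had none. Levels of different probes cannot be compared with each other.

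The members and lists were chosen with earlier results of these data known. Values on every array are given for the 10 members with the smallest p on any probe and for chosen paralogues, and for the other lists the 2 genes with the smallest p are named; Stx1a, Rab3c, Slc17a7, Slc32a1 and Gad2 were added as examples after their values were seen. Some genes of the lists are not reported here. Each mouse was taken as 1 replicate. The precision rests on 3 arrays per group. The alternatives were the authors' processed values (which replace correction, offset and normalization together), median scaling, raw intensity with no correction, an offset of 50, a replicate block, detection on all 6 arrays or no filter, array weights, a variance trend together with robust moderation, the mean over probes and each array left out in turn.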

Additional observations from a re-analysis of the deposited data

How the results depend on the processing

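No presynaptic probe of the list passed after adjustment in any of the 15 fits with probes other than the one reported, and the lowest adjusted p among them was 0.24, with array weights. The number of its probes with an unadjusted p under 0.05, 2 as reported, was 5 with a replicate block and with array weights, 3 with the authors' values, without a filter and with a variance trend and robust moderation, 1 with median scaling and 2 to 5 with 1 array left out. The share of all genes under 0.05 moved too, from 5.23% to 8.79% with the block and 11.2% with array weights. It was 5.55% with the authors' values, 5.71% without a filter and 5.27% with a variance trend and robust moderation. With median scaling it was 5.79%, and with 1 array left out 4.05% to 7.11%. These are shares of genes, and shares of all probes were not taken for the alternatives. Without a filter the list had 71 probes and 32 genes. The count over all probes, 0 as reported, was 2 with a replicate block, 1 without background correction, 5 with an offset of 50, 8 with the authors' processed values and with a variance trend and robust moderation, 3 with detection on all 6 arrays and 13 with array weights; leaving out 1 array gave 0 to 2. The count of genes of the list with an unadjusted p under 0.05 was 1 (Syt1) with the authors' values, without a filter, with array weights and with a variance trend and robust moderation, and 0 to 1 with 1 array left out (Rab3c without wild type 3, Doc2b without hypomorph 1, Syt4 without hypomorph 2). For the other presynaptic lists it was 11 of 92 with the block and 9 with array weights. It was 5 with median scaling (5.79% of all genes) and 6 with the authors' values (5.55%). It was also 6 with a variance trend and robust moderation (5.27%) and 6 of 109 without a filter (5.71%). With 1 array left out it was 2 to 6, while the share of all genes ran from 4.05% to 7.11%. The median of the list ran from -0.0631 to 0.0769 with 1 array left out.

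Same-numbered arrays deviated together for the numbers 1 (r = 0.44 across probes) and 2 (0.40) but not clearly for 3 (0.06). Each array correlated best with that of its own number. The numbers were not taken as pairs because the labels do not say that they mark littermates. With 3 arrays per genotype these correlations cannot decide whether they do. With the replicate block 2 probes passed in all, and 0 of the list. The unadjusted p in limma was then 0.00346 for Syngr1 ILMN_3028575 (adjusted p = 0.318) and 0.0108 for Syt1 ILMN_1226085 (adjusted p = 0.417). It was 0.0129 for Snap91 ILMN_2597032 (adjusted p = 0.425) and 0.022 for the dimmer Rims1 probe (adjusted p = 0.466). Signs turned: with median scaling, where the median of all genes stood at -0.0769 (-0.0086 as reported), for Cplx1 (0.003), Unc13c (-0.0099), Nsf (-0.0249), Rims2 (-0.0139) and Pclo (-0.0259); with array weights for Syn1 (0.14), Syn2 (-0.0501), Syngr1 (0.13), Rph3a (0.067), Vamp1 (-0.0214), Cplx2 (0.0074), Unc13a (0.17) and Rab3c (0.34); with the mean over probes for Syn1 (0.0241), Vamp1 (-0.0239) and Snap91 (0.25). With 1 array left out the sign turned at least once for Syn2 (-0.093 to 0.27), Unc13c (-0.0629 to 0.12), Nsf (-0.0679 to 0.0897), Rims2 (-0.11 to 0.30), Pclo (-0.0633 to 0.24), Rab3c (-0.80 to 0.0454), Syn1 (-0.18 to 0.13), Syngr1 (-0.31 to 0.10), Rph3a (-0.21 to 0.15), Cplx2 (-0.23 to 0.0452), Unc13a (-0.22 to 0.16), Syp (-0.089 to 0.0943), Sv2c (-0.0246 to 0.40), Cplx1 (-0.0532 to 0.0346), Rims1 (-0.0296 to 0.25), Snap91 (-0.17 to 0.13) and Stx1a (-0.66 to 0.0481), the ranges being over the 6 arrays. Syn3, Sv2a, Sv2b, Syt1, Syt4, Syt11, Doc2b, Vamp2, Napb and Rab3a kept their sign in all 16 alternatives, though not their size: Sv2b was -0.0047 without hypomorph 2, Sv2a 0.0131 without wild type 3 and Vamp2 0.0179 with array weights. The cause of these changes was not tested.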
